A study of Mus musculus with 6 samples.

Results

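The genes described here mark the medium spiny projection neurons of the striatum, the brain region beneath the frontal cortex, and they were followed in RNA sequencing libraries of mouse prefrontal cortex. They were chosen by name: Drd2, Adora2a, Penk and Gpr6 of the indirect pathway, Pdyn and Tac1 of the direct pathway, and Ppp1r1b, Adcy5 and Rgs9, which both pathways use. All 9 had a row among the 23284 gene symbols of the count table, and all 9 passed the filter on low counts that 15258 genes passed. There were 3 libraries from mice housed singly for 6 days and 3 from mice housed in groups for 6 days; every animal was a wild type C57BL/6 mouse, 8 to 10 weeks old, and no group carried a transgene or received an agent according to the labels. Library totals ranged from 25858355 to 33428512 counts, and Slc17a7, the vesicular glutamate transporter gene of cortical projection neurons, lay between 1900 and 2130 CPM (a gene's count scaled to a library total of 1000000) in all 6. The libraries are called S1, S2 and S3 (single-housed replicates 1, 2 and 3) and G1, G2 and G3 (group-housed replicates 1, 2 and 3). Whether separate mice gave the libraries is not in the labels; p-values then measure how far these samples spread, which may be technical variation alone. S1, S2 and G1 stood apart from the other 3 libraries in 8 of the 9 genes.

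Striatal projection neurons are inhibitory cells that receive dopamine and fall into a pair of classes with separate outputs. Cells of the direct pathway carry the dopamine D1 receptor, which raises cyclic AMP, and release dynorphin and substance P. Cells of the indirect pathway carry the dopamine D2 receptor, which lowers cyclic AMP, together with an adenosine receptor that raises it, and release enkephalin. The peptide genes are not exclusive to the striatum: interneurons of the cortex also transcribe Penk, Tac1 and Pdyn.

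The proximal promoters of 4 of these genes are shown as a description, and no link between a motif and the level of a gene was tested. Gpr6 and Tac1 hold a match to a cyclic AMP response element. Drd2 and Pdyn, which had the widest and the narrowest range, hold none, although Drd2 was high in the same libraries as Gpr6 and Tac1. The 250 bases before the start site are given 5′ to 3′ on the gene's strand, from RefSeq on build GRCm38.p6, with matches in capitals. They lie at chr10:41072291-41072540 on the minus strand for Gpr6, chr6:7554811-7555060 on the plus strand for Tac1, chr9:49340153-49340402 on the plus strand for Drd2, and chr2:129699939-129700188 on the minus strand for Pdyn, the farther upstream of its 2 listed starts.
Gpr6: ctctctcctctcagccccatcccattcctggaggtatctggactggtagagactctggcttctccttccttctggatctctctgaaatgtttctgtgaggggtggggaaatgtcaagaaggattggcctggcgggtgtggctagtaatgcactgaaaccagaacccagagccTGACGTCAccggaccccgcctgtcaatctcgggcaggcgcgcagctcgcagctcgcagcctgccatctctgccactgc
Tac1: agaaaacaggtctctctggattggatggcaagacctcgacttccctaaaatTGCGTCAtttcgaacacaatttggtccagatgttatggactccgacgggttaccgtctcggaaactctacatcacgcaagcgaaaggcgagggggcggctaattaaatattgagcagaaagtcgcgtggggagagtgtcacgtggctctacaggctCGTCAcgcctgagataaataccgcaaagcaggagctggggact
Drd2: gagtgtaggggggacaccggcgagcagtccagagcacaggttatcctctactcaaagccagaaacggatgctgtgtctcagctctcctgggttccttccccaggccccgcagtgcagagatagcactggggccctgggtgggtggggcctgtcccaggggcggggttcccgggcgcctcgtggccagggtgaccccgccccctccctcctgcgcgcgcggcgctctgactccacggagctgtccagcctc
Pdyn: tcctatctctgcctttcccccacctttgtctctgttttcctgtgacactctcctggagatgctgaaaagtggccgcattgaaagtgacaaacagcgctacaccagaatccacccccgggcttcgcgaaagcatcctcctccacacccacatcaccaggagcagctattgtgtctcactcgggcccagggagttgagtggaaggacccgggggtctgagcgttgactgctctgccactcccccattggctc

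The search covered both strands for the full element TGACGTCA, its core TGACG, which the full element contains on each strand, and the variant TGCGTCA, which contains the core on the opposite strand. Gpr6 held the full element, beginning 78 bases before the start; 1.55% of 32851 promoter windows of this length hold it. Tac1 held the variant beginning 199 bases before the start, which 1.75% of windows hold, and a further core match 43 bases before the start. The core alone is in 17.8% of windows, and the entries for Drd2, Pdyn, Rgs9 and Adcy5 held none of the 3 motifs. The table had entries for 6 of the 9 genes, and Adora2a, Penk and Ppp1r1b were not matched. A match of letters describes the sequence and is not evidence of a bound site.

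Among the receptors of the indirect pathway, levels differed between libraries by 21.1-fold or more, and the libraries that differed lay in both housing groups. Drd2 (chromosome 9, 49148767 to 49215319, mm9) encodes the dopamine D2 receptor. It was at 46.8, 17.4 and 0.868 CPM in S1, S2 and S3, and at 16.7, 1.0 and 2.52 CPM in G1, G2 and G3. S1, S2 and G1 were high, the other 3 were low, and the groups overlapped. Adora2a (chromosome 10, 74779688 to 74797533), the adenosine receptor gene, was at 88.9, 37.0 and 2.72 CPM in S1 to S3 and 37.3, 2.1 and 5.64 CPM in G1 to G3. Gpr6 (chromosome 10, 40790299 to 40791390) encodes an orphan receptor that raises cyclic AMP. It was at 15, 6.87 and 0.838 CPM against 5.65, 0.711 and 1.34 CPM. The highest library exceeded the lowest 54.0-fold for Drd2, 42.3-fold for Adora2a and 21.1-fold for Gpr6, and the order of the 3 high libraries above the 3 low ones was shared. Without S1 these ranges were 20.0-fold, 17.7-fold and 9.66-fold.

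The low libraries rested on few reads. Drd2 had 29 reads in S3, 31 in G2 and 81 in G3. G3 was above the other low libraries for Drd2 and Adora2a: its exact 95% Poisson interval for Drd2 was 2.0 to 3.14 CPM, against 0.581 to 1.25 and 0.681 to 1.42 CPM in S3 and G2. For Adora2a the interval was 4.85 to 6.52 CPM, against 2.19 to 3.34 and 1.62 to 2.68 CPM. For Gpr6 the interval of 0.97 to 1.81 CPM in that library overlapped those of the other low libraries (0.557 to 1.21 and 0.446 to 1.08 CPM). These intervals cover counting error only and compare libraries, not conditions.

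Penk (chromosome 4, 4060683 to 4065592), the enkephalin precursor gene, followed the same libraries over a smaller range. It was at 318, 164 and 57.9 CPM in S1 to S3 and at 171, 52.9 and 56.3 CPM in G1 to G3, a 6.01-fold range (3.23-fold without S1). In the 3 low libraries it lay between 52.9 and 57.9 CPM, and G3 was not above S3 for this gene.

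The peptide genes of the direct pathway did not behave alike. Tac1 (chromosome 6, 7505071 to 7512973) encodes the precursor of substance P. It was at 47.5, 32.9 and 14.4 CPM in S1 to S3 and 36.1, 12.8 and 14.1 CPM in G1 to G3, a 3.72-fold range with the same 3 libraries high. Pdyn (chromosome 2, 129513737 to 129515604) encodes the dynorphin precursor, and its row counts 747 bases of exon. It was at 13.0, 9.98 and 10.1 CPM against 7.85, 9.5 and 9.32 CPM, a 1.66-fold range. G1, high for the other 8 genes, was the lowest library for Pdyn, with an interval of 6.81 to 9.01 CPM that does not reach that of S1 (11.8 to 14.3 CPM). It did overlap those of S2 (8.93 to 11.1 CPM), G2 (8.45 to 10.7 CPM) and G3 (8.29 to 10.4 CPM).

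The signalling genes that both pathways share followed the same libraries. Ppp1r1b (chromosome 11, 98210052 to 98219109) encodes the dopamine- and cyclic AMP-regulated inhibitor of protein phosphatase 1. It was at 424, 191 and 64.6 CPM against 220, 65.4 and 87.3 CPM, a 6.57-fold range (3.41-fold without S1). Rgs9 (chromosome 11, 109086669 to 109159495), a regulator that shortens G protein signals, was at 166, 85.4 and 18.8 CPM against 80.9, 18.6 and 21.8 CPM, an 8.92-fold range (4.59-fold without S1). Adcy5 (chromosome 16, 35155722 to 35304635), the main adenylyl cyclase gene of striatal neurons, was at 454, 264 and 151 CPM against 246, 149 and 159 CPM, a 3.04-fold range (1.77-fold without S1). For each of them S1, S2 and G1 were the 3 highest libraries, and the groups overlapped.

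**Figure D1:**
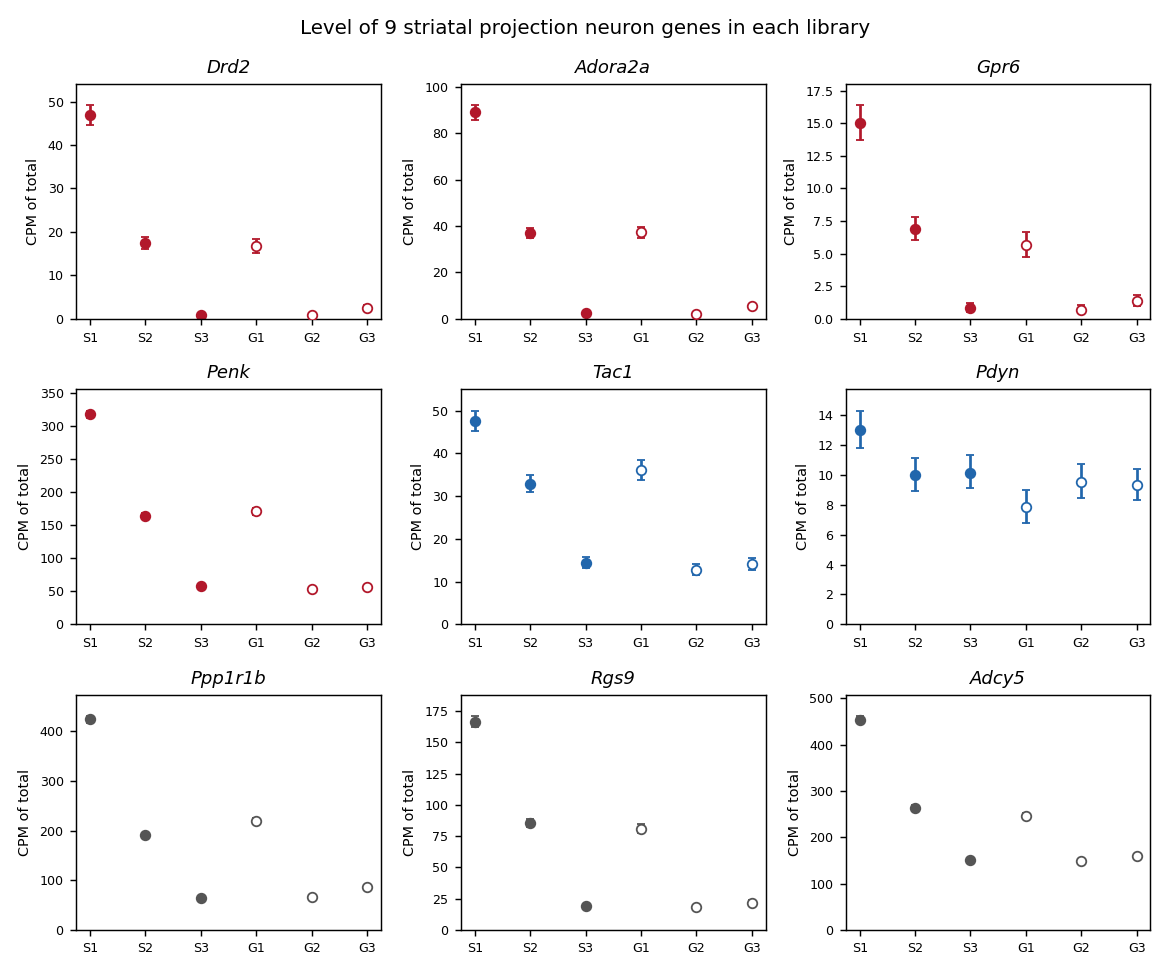
Each panel plots 1 gene as CPM of the library total (vertical axis, from 0) in the 6 libraries (horizontal axis; filled points single-housed, open points group-housed; bars are exact 95% Poisson intervals for counting error). S1 is highest in all 9 panels, and Pdyn is the panel in which G1 is lowest, at 7.85 CPM.

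Measured against all genes, the ranges of 8 of the 9 were wide. The median highest-over-lowest fold was 6.57 over the 9 genes and 1.3 over all genes tested. A range of at least 2-fold was found for 8 of 9, with Pdyn outside, and for 10.1% of all genes; a range of at least 4-fold was found for 6 of 9 and for 1.39% of all genes. Among the genes tested with no library at 0, Drd2 had the 4th widest range and Adora2a the 5th. S1 was the highest library for 9 of 9 genes, against 14.7% of all genes. S1, S2 and G1 were the 3 highest libraries for 8 of 9, against 14.2% of all genes. These 3 libraries were picked because an earlier analysis of these data found striatal markers high in them. Counts of genes that follow them, here and below, are therefore a description and no test. In bulk tissue, fewer cells of a type and less RNA per cell cannot be told apart.

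**Figure D2:**
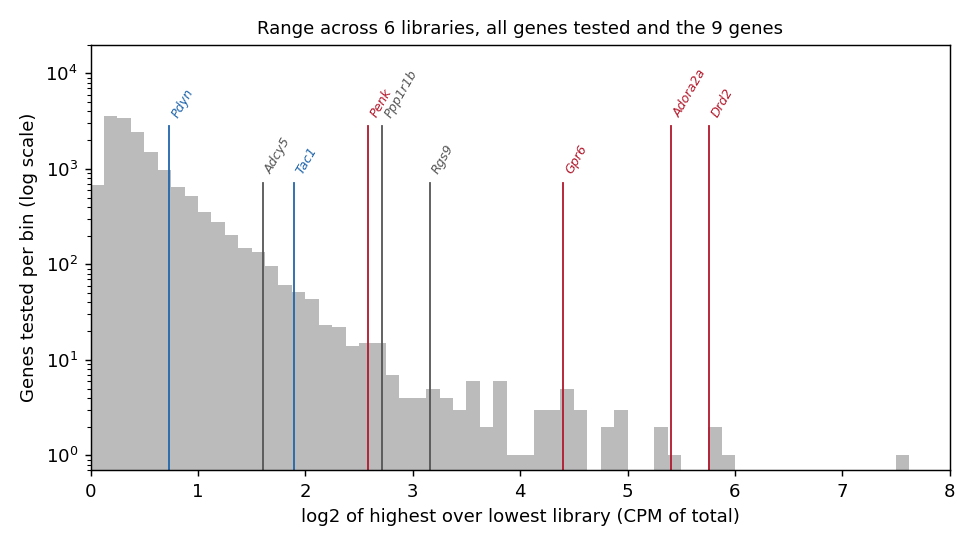
The histogram counts all genes tested (vertical log axis) by the log2 of the highest over the lowest library (horizontal axis), leaving out the 11 genes with a library at 0; vertical lines mark the 9 genes (red indirect, blue direct, grey shared). Drd2, Adora2a and Gpr6 lie far to the right of most genes, and Pdyn, at 1.66-fold, lies among them.

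Although the fold ranges differed widely, the libraries kept broadly similar places within each gene's range, other than that of Pdyn. On a linear scale from the lowest library (0%) to the highest (100%), S2 lay between 35.2% and 58.0% for the 8 genes other than Pdyn, with a median of 41.0%. G1 lay between 31.8% and 67.1%, with a median of 41.4%, and was above S2 for 4 of the 8 genes. Tac1 set the upper end for both libraries. The low libraries lay at 0% to 6.31%, G3 always above 0%. The ends of the scale are set by definition, and where the range is wide a low library falls near 0%. Drd2 in G3, for example, was 2.91-fold over its lowest library and lay at 3.6%. For Pdyn the same scale read 41.2% in S2, 44.4% in S3, 32.1% and 28.5% in G2 and G3, and 0% in G1.

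**Figure D3:**
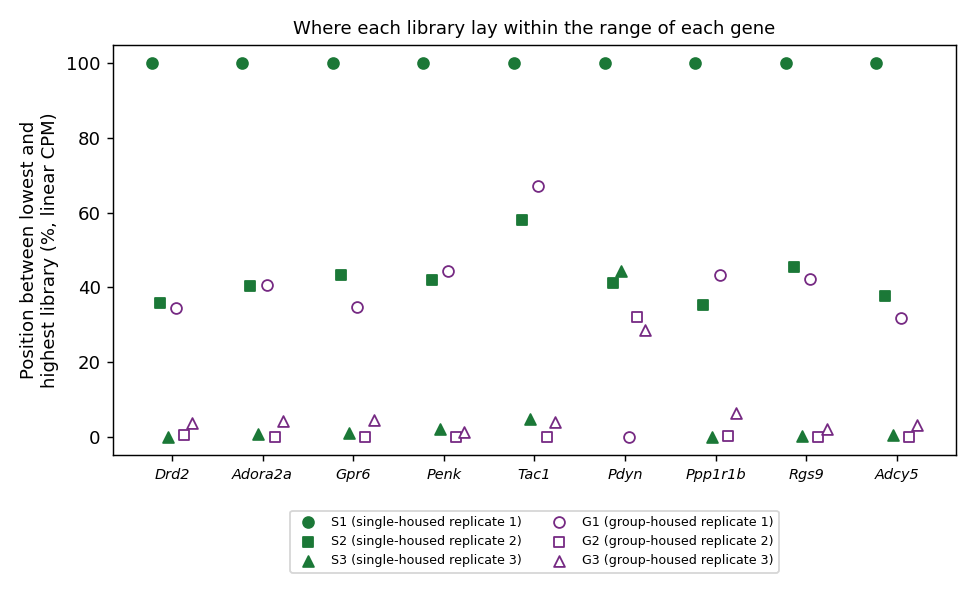
For each gene (horizontal axis), points give the position of each library between that gene's lowest (0%) and highest (100%) library on the linear CPM scale (vertical axis; filled green single-housed, open purple group-housed). Outside Pdyn, S2 and G1 sit between 31.8% and 67.1% and the low libraries at or below 6.31%.

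Compared per length, as RPKM (CPM per kilobase of exon), Ppp1r1b and Penk were the most abundant of the 9 in every library. Ppp1r1b ranged from 38.8 to 255 RPKM and Penk from 37.4 to 225 RPKM, and they exchanged the top place between libraries. Adcy5 was the third in all 6 libraries, at 29.5 to 89.8 RPKM. Tac1 (12.4 to 46.0 RPKM) was the fourth in all but G2, where Pdyn was just above it at 12.7 RPKM. The lower places changed with the library: in S1, Adora2a (35.1 RPKM) and Drd2 (30.2 RPKM) stood above Pdyn (17.4 RPKM), whereas in G2 Pdyn stood above Adora2a (0.829 RPKM) and Drd2 (0.647 RPKM). Rgs9 lay at 2.18 to 19.5 RPKM, and Gpr6, at 0.651 to 13.7 RPKM, was the eighth or the ninth in each library. These places depend on the exon length of each row, which ran from 747 bases for Pdyn and 1092 for Gpr6 to 8530 for Rgs9. Whether those lengths match the transcripts present was not tested. Ratios per kilobase share this limit, but the fold range of a ratio over the libraries does not depend on length.

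The ratio of direct to indirect pathway genes within a library, which does not depend on its depth, varied with the library for most pairs. Counted per kilobase, Tac1 over Drd2 was 1.52, 2.84 and 24.8 in S1 to S3 and 3.24, 19.1 and 8.38 in G1 to G3. Pdyn over Drd2 was 0.576, 1.19 and 24.2 against 0.977, 19.7 and 7.65, so Drd2 exceeded Pdyn in S1, was nearly equal to it in G1 and S2, and lay far below it in the low libraries. G3 lay between the high and the other low libraries in both. Tac1 over Penk was nearly level in comparison, at 0.204, 0.274 and 0.339 against 0.289, 0.33 and 0.343. The 8 ratios of Pdyn or Tac1 to Drd2, Adora2a, Penk or Gpr6 ranged over the libraries from 1.68-fold (Tac1 over Penk) to 42.1-fold (Pdyn over Drd2), with a median of 13.4-fold.

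Ratios within a pathway were mostly, but not always, narrower in range than direct to indirect ratios. The median range was 3.26-fold over the 6 pairs of indirect pathway genes, against 13.4-fold over the 8 direct to indirect pairs. The 1 pair within the direct pathway, Pdyn and Tac1, had a 3.42-fold range. Drd2 over Adora2a, both receptor genes of the indirect pathway, had a 1.65-fold range. Drd2 over Penk, also genes of that pathway, had a 9.84-fold range, the widest of those pairs. Interneurons of the cortex also transcribe Penk, Tac1 and Pdyn, and how much of their reads came from which cells was not tested. Penk over the shared gene Ppp1r1b had the narrowest range of the 36 pairs, at 1.39-fold. Drd1a, the dopamine D1 receptor gene and the defining receptor of the direct pathway, was set beside the 9 by name: it was at 60.1, 36 and 11.2 CPM in S1 to S3 and 35.7, 10.5 and 11.4 CPM in G1 to G3, a 5.74-fold range. Its ratio to Penk, a gene of the opposite pathway, was 0.0757, 0.0878 and 0.0777 in S1 to S3 and 0.0837, 0.0793 and 0.0812 in G1 to G3, a 1.16-fold range. Its ratio to Pdyn, of its own pathway, was 0.979, 0.764 and 0.235 against 0.962, 0.233 and 0.259, a 4.19-fold range. Its ratio to Tac1, also of its own pathway, was 0.371, 0.32 and 0.229 against 0.29, 0.24 and 0.237, a 1.62-fold range. Drd1a over Drd2 was 0.564, 0.909 and 5.69 against 0.939, 4.59 and 1.98.

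The housing groups overlapped for all 8 ratios. The mean log2 ratio was lower in single-housed than in group-housed libraries for each of the 8 pairs, with differences from −0.26 for Tac1 over Penk to −1.14 for Pdyn over Adora2a. Tac1 over Penk was at −1.91 ± 0.367 against −1.65 ± 0.129 (SD over 3 libraries each; two-sided exact permutation p = 0.3), and Pdyn over Drd2 was at 1.35 ± 2.86 against 2.4 ± 2.22 (two-sided exact permutation p = 0.8). Exact p-values of the 8 pairs ran from 0.3 to 0.8, where 3 against 3 cannot go below 0.1, and each was 0.8 after Benjamini-Hochberg adjustment over the 8. The pairs share their genes and libraries and are not independent. Without S1 the median of the 8 differences was −0.14, and without S3 it was −1.89, against −0.8 with all libraries.

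**Figure D4:**
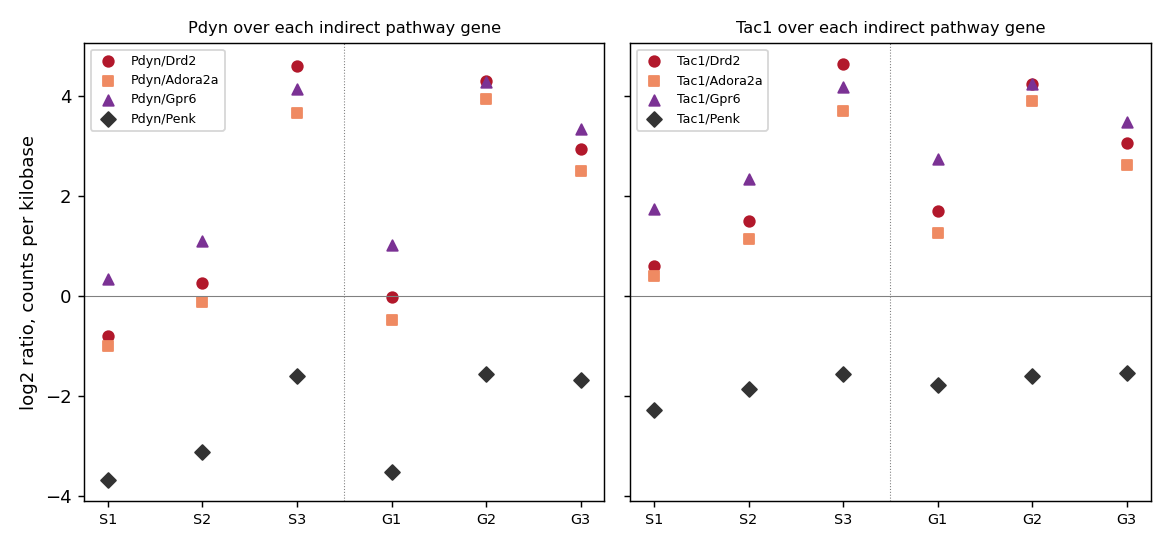
The vertical axis is the log2 ratio of counts per kilobase for Pdyn (left) and Tac1 (right) over each indirect pathway gene, in the 6 libraries of the horizontal axis, with a dotted line between the housing groups. Ratios to Drd2, Adora2a and Gpr6 are low in S1, S2 and G1 and high in the other 3 libraries, while Tac1 over Penk moves only between −2.29 and −1.54.

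For housing itself, all 9 genes had a higher fitted level in single-housed libraries and none passed the test. The log2 differences, single-housed minus group-housed, were 1.75 (SE 1.16) for Drd2, 1.56 (SE 1.13) for Adora2a, 1.61 (SE 0.912) for Gpr6 and 0.97 (SE 0.598) for Penk. They were 0.61 (SE 0.465) for Tac1 and 0.31 (SE 0.144) for Pdyn. The shared genes had 1.18 (SE 0.738) for Rgs9, 0.88 (SE 0.625) for Ppp1r1b and 0.66 (SE 0.347) for Adcy5. The median was 0.97 over the 9 genes and 0.0 over all genes tested. In edgeR's quasi-likelihood test, adjusted by the Benjamini-Hochberg method over all genes, the adjusted p was 1 for each of the 9, and 0 genes of the table were called (0% of those tested). At an unadjusted p under 0.05, 0 of the 9 and 1.56% of all genes were found. Over all genes tested, 238 had such a p, DESeq2 called 2 genes higher and 6 lower, none of them among the 9, and limma-voom called 0. The higher fitted direction was shared by 50.7% of all genes. The 9 directions are not independent, since for 8 of the genes the same 3 libraries were high and 2 of these were single-housed.

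The size of these differences rested on single libraries. Without S1 the differences ran from 0.05 for Ppp1r1b to 0.63 for Gpr6, with Drd2 at 0.48. Without G1 the difference was 3.59 for Drd2 and 3.44 for Adora2a, and 0 of the 9 genes passed the threshold in either fit. S1, S2 and G1 were also left out together. They were picked because an earlier analysis of these data found striatal markers high in them, as 8 of these 9 genes are, so that fit is a description of S3 beside G2 and G3 and no test of housing. In it 6 of the 9 differences were below 0, with Drd2 at −1.04. Mean levels were 21.7 ± 23.4 CPM over S1 to S3 and 6.6 ± 8.35 CPM over G1 to G3 for Drd2 (TMM-scaled, SD, n = 3 each), so the spread within a group exceeded its mean. Within the single-housed group alone Drd2 differed 54.0-fold and within the group-housed group 16.6-fold.

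Pdyn was the gene whose housing groups did not overlap, at 11 ± 1.76 CPM over S1 to S3 and 8.92 ± 1.12 CPM over G1 to G3 (TMM-scaled, SD, n = 3 each). This was 1 of 9 genes, beside 4.86% of all genes whose groups did not overlap in either direction and 2.46% that were higher in each single-housed library. The gap was small, from 9.5 CPM of the total in the highest group-housed library to 9.98 CPM in the lowest single-housed one. Their counting intervals, 8.45 to 10.7 and 8.93 to 11.1 CPM, overlapped. Its difference was 0.17 without S1.

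**Figure D5:**
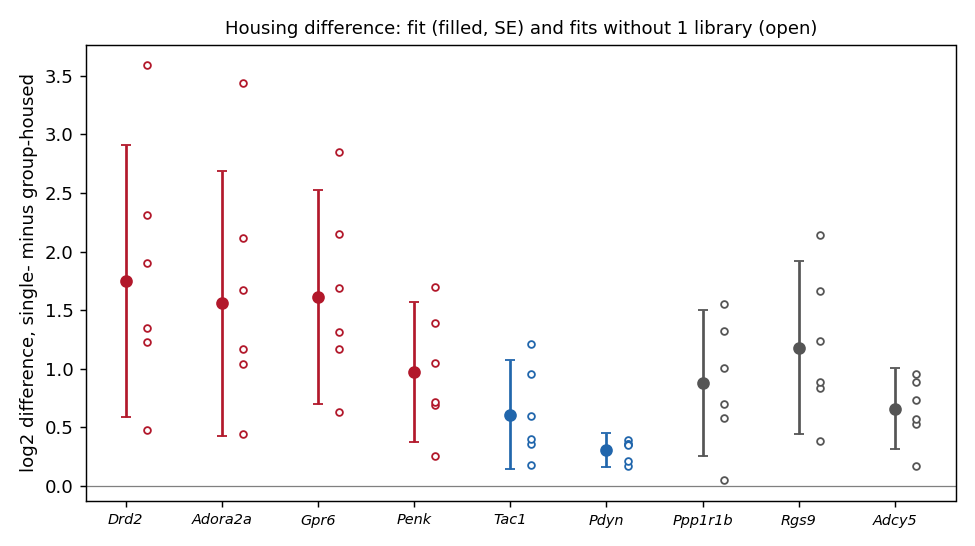
Filled points are the log2 difference, single-housed minus group-housed, of each gene in the fit to all 6 libraries with its SE (vertical axis); open points are the same difference with 1 library left out. All points lie above 0, and those of Drd2 run from 0.48 to 3.59.

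Other genes of the same neurons, in lists written out by name, followed the same libraries in part. Among 16 further genes shared by striatal projection neurons, 14 had S1, S2 and G1 as the 3 highest libraries, beside the 14.2% of all genes. Rxrg, a retinoid receptor gene, was at 50.2, 21.3 and 5.5 CPM in S1 to S3 and 24.3, 5.79 and 7.98 CPM in G1 to G3. Rasd2, a small GTPase gene, was at 303, 154 and 82.1 CPM against 157, 84.6 and 101 CPM. Six3, a transcription factor gene needed for indirect pathway neurons, had 308, 114 and 0 counts against 84, 1 and 11. A count of 0 allows up to 3 counts, which is 0.0897 CPM in that library. The median log2 difference of these 16 genes was 0.48, with 16 fitted higher, 0 fitted lower and 0 called in either direction.

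The remaining direct and indirect pathway genes divided. Of 7 further direct pathway genes, 4 had those 3 libraries highest, with a median log2 difference of 0.27, 7 fitted higher and 0 called. Isl1, a transcription factor gene of direct pathway and cholinergic neurons, had 76, 29 and 0 counts in S1 to S3 and 19, 0 and 0 in G1 to G3. Slc35d3, a transporter-family gene, was at 9.0, 4.49 and 0.658 CPM against 3.79, 0.647 and 0.623 CPM. Chrm4, the muscarinic M4 receptor gene, was nearly level, at 59.0, 50.8 and 43.0 CPM against 57.6, 41.5 and 51.5 CPM. Of 5 further indirect pathway genes, 3 had those libraries highest (median log2 difference 0.03; 3 fitted higher, 2 lower, 0 called). They were Gpr52, an orphan receptor gene, at 10.1, 6.42 and 3.86 CPM against 4.99, 4.11 and 3.12 CPM, Sp9, a transcription factor gene, at 6.47, 3.35 and 2.24 CPM against 4.14, 2.78 and 3.09 CPM, and Ttc12.

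The partners of the shared signalling genes were uneven. Of 15 dopamine and cyclic AMP signalling genes, 7 followed the same 3 libraries, 14 were fitted higher and 1 lower, and 0 were called (median log2 difference 0.12). Pde10a, the phosphodiesterase gene of striatal neurons, was at 360, 178 and 55.0 CPM in S1 to S3 and 129, 93.0 and 85.5 CPM in G1 to G3. Gng7, a G protein gamma subunit gene, was at 351, 207 and 87.3 CPM against 203, 86.8 and 101 CPM. Gnal, the stimulatory G protein gene that couples striatal receptors to Adcy5, had a smaller range, 336, 250 and 202 CPM against 243, 209 and 191 CPM. Gnb5, whose protein binds the Rgs9 protein, ranged only from 156 to 178 CPM, a 1.14-fold range against 8.92-fold for Rgs9.

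The receptors and enzymes that act on the peptides and transmitters included 4 of 13 tested that followed the same libraries: Tacr1, Tacr3, Oprk1 and, named after its values were seen, Drd5 (6 fitted higher, 7 lower, 0 called; median log2 difference −0.01). Tacr1, the substance P receptor gene, was at 10.2, 4.97 and 1.62 CPM against 5.68, 1.55 and 1.65 CPM, a 6.6-fold range that exceeds that of Tac1. Oprk1, the dynorphin receptor gene, was at 14.6, 15.2 and 7.57 CPM against 15.7, 6.5 and 6.08 CPM. It was high both in S1, where Pdyn was highest, and in G1, where Pdyn was lowest. Oprm1, an enkephalin receptor gene, was low and did not follow, at 0.638, 0.332 and 0.419 CPM against 0.271, 0.647 and 0.218 CPM.

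Markers of other cell types moved with the 9 genes to different degrees, and their part in the results was not tested. The summed level of 6 striatal cholinergic interneuron markers was 25.7, 11.6 and 5.33 CPM in S1 to S3 and 12.4, 5.85 and 6.02 CPM in G1 to G3, with 4 of 5 tested following the same 3 libraries. Chat, their defining enzyme gene, was at 5.68, 1.96 and 0.299 CPM against 2.4, 0.323 and 0.499 CPM, and Lhx8 was too low to test. All 6 oligodendrocyte markers followed as well, with a sum of 4023, 3862 and 1905 CPM against 5298, 1859 and 2907 CPM. Their highest library was G1, not S1. Of 10 cortical projection neuron markers, 1 followed, Foxp2, which striatal neurons share. The sum of the 10 was 2708, 2972 and 3090 CPM in S1 to S3 and 2835, 2991 and 3059 CPM in G1 to G3. It was lowest in S1, then G1 and S2, with S2 only just below G2. Cux2 was at 106, 98.4 and 126 CPM against 76.3, 130 and 114 CPM. Rasgrf2 was at 173, 176 and 242 CPM against 144, 253 and 217 CPM. Slc17a7 was nearly level, and the other markers of this list are given only within the sum. Of 10 cortical interneuron markers, 1 followed (Sst), with a sum of 1030 to 1275 CPM. Of the 5 markers each, 0 of the astrocyte, 0 of the endothelial and 1 of the microglial genes (Csf1r, named after its values were seen) followed; sums were 928.5 to 1101, 99.0 to 132.4 and 275.1 to 350.5 CPM. Of 4 olfactory bulb and 6 septum, claustrum and pallidum genes tested, 2 (Cdhr1 and Th) and 4 (Gnb4, Nkx2-1, Oprk1 and, named after its values were seen, Ntng2) followed, with sums of 106.8 to 135.8 and 83.9 to 117.7 CPM.

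Outside all of these lists, the genes nearest in profile to the mean of the 9 were ranked by the root mean square distance between centred log2 CPM values over the 6 libraries, with 0.1 CPM added. The 10 nearest were Clec12a, Nexn, Myo3b, Ido1, Pif1, Prima1, Gdnf, Htr1d, Clic6 and Scn4b, at distances of 0.175 to 0.403, where the median over all genes tested was 1.15. Rgs9 (0.132), Ppp1r1b (0.185) and Penk (0.209) were themselves nearest the mean, and Drd2 (1.01), of wider range, and Pdyn (1.09), of narrower range, were farthest. Scn4b, a sodium channel beta subunit gene, had the most reads of the 10, at 537, 268 and 127 CPM in S1 to S3 and 288, 119 and 148 CPM in G1 to G3. Nexn, an actin-binding protein gene, was at 14.2, 5.37 and 1.76 CPM against 6.69, 1.39 and 1.59 CPM. Ido1, an enzyme gene of tryptophan breakdown, was at 4.26, 1.45 and 0.299 CPM against 2.4, 0.259 and 0.467 CPM. Others rested on few reads, such as Clec12a with 33, 14 and 3 counts against 11, 1 and 3. Ranking by correlation instead kept 1 of the 10, Myo3b, so the names depend on the measure of likeness.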

How the data were processed

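RNA of 6 prefrontal cortex samples was sequenced after poly(A) selection with a kit that keeps strand, per the labels' protocols. The authors deposited raw counts of reads per gene with no normalization; FastQC, STAR, featureCounts and build mm9 are named in the submitters' processing notes, but neither versions nor the strand setting: not given in the sources used here. For RPKM, the deposited gene length, per the file headers, was used. Without the strand setting, reads of overlapping antisense genes cannot be told apart.

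Samples were grouped by the housing label. All genes past filterByExpr (minimum count 10, minimum total 15) were tested with edgeR 4.0.16 in R 4.3.3 (quasi-likelihood test, TMM, Benjamini-Hochberg, threshold 0.05). SEs were derived from the F statistic. Ratios were compared by exact permutation tests (scipy 1.17.1). Depth is given as total counts, with exact 95% Poisson intervals that cover counting error only. DESeq2 1.42.0, limma-voom (limma 3.58.1), other filters and scalings, the replicate block, and leaving out libraries were tried as alternatives.

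No 2 libraries of a group agreed within sampling noise (chi-square per degree of freedom 10.2 to 40.1). The genes and lists were chosen with earlier results of these data known. Named beyond the 9 were, per list, the 3 tested genes of widest range, 13 genes fixed by name, and the 10 nearest profiles without predicted genes; some of these are not reported here or are given only within counts. Drd1 was matched through its older symbol Drd1a. Planned protein sequences were not used here.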

Additional observations from a re-analysis of the deposited data

How the results depend on the processing

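Over 15 alternatives, 129 of 135 log2 differences of the 9 genes kept their direction, and 0 of the 9 genes passed the threshold under any of them. The exceptions came in the fit without single-housed replicates 1 and 2 and group-housed replicate 1, which leaves 1 library against 2 and assumes that the lone library varies like the other group. Those libraries were picked for high striatal markers, as 8 of the 9 genes are there, so these values depend on the choice and are no test of housing. There Drd2 was at −1.04, Adora2a at −0.53, Gpr6 at −0.31, Ppp1r1b at −0.26, Rgs9 at −0.13 and Adcy5 at −0.05. The count of genes called in the whole table was 0 higher and 0 lower with edgeR, 2 higher and 6 lower with DESeq2, and 1 higher and 3 lower in that fit. With 1 library left out, 0 were higher and 0 to 1 lower (1 without group-housed replicate 1, and 1 without group-housed replicate 2). limma-voom called 0.

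The median of the 8 direct to indirect differences ran from −1.89 to −0.14 with 1 library left out. Pdyn over Drd2 ran from −2.67 to 0.02 and Tac1 over Drd2 from −1.95 to 0.06, the higher value without single-housed replicate 1 in each case. Without that library the highest-over-lowest ranges were smaller for all 9 genes: 20.0-fold for Drd2, 17.7-fold for Adora2a, 9.66-fold for Gpr6, 4.59-fold for Rgs9, 3.41-fold for Ppp1r1b, 3.23-fold for Penk, 2.83-fold for Tac1, 1.77-fold for Adcy5 and 1.29-fold for Pdyn.

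With the replicate number as a block, 0 genes were called, the median of the 8 ratio differences was −0.8, and exact sign-flip p-values of the 8 pairs were 0.25 to 0.75 (0.25 is the smallest possible). Correlations of deviations for the same numbers 1, 2 and 3 were 0.271, −0.318 and 0.17, and between different numbers they ran from −0.429 to 0.35. No pairing by number was seen, but 3 libraries per group cannot decide whether same-numbered samples belong together. Counts of 22 to 43 for Gpr6 in the low libraries limit the precision of its ratios.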
